A study of Homo sapiens with 6 samples.

Results

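The loci of 4 genes for ETS transcription factors other than EHF, namely ELF3, SPDEF, ETS1 and ETS2, were examined in chromatin data from Calu-3, an established airway epithelial line derived from a human lung adenocarcinoma. Each locus was an hg19 window set by the gene's position, made of the gene's span and about 50 kb on each side. The windows ran from 201.93 to 202.04 Mb on chromosome 1 for ELF3, from 34.45 to 34.58 Mb on chromosome 6 for SPDEF, from 128.28 to 128.51 Mb on chromosome 11 for ETS1, and from 40.13 to 40.25 Mb on chromosome 21 for ETS2. They add up to 590.0 kb. The gene span named below is the window less 50 kb at each end. It is known only to about 10 kb and is wider than the annotated gene at ELF3 (10 kb against 6.60 kb in RefSeq on GRCh38.p14) and SPDEF (30 kb against 18.5 kb), so a region in the span may lie just outside the gene. All intervals of the deposited lists that touched a window were members, which gave 75 of 73341 intervals. There were 34 of 34638 H3K27ac regions, 40 of 31950 H3K4me1 regions, 1 of 5216 EHF peaks of replicate 2 and 0 of 1537 EHF peaks of replicate 1. No interval crossed a window edge.

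The study used chromatin immunoprecipitation and sequencing on Calu-3 cells kept in a serum-containing low-glucose medium, with no treatment or genotype change named in the labels. It has 2 replicate libraries of EHF (Ets homologous factor) called against a shared input, and 1 library each of H3K4me1 and H3K27ac called against another. Depth was between 8418631 and 21426939 tags. Called intervals took up 28.9% of the H3K27ac tags and 5.80% of the H3K4me1 tags, but 0.740% of those of EHF replicate 2 and 0.155% of those of replicate 1. The score given with each interval is the authors' tag count after scaling the library to 10000000 tags. Ranges in brackets after a score are exact 95% Poisson intervals, which cover counting error only. Each mark has a single library of a single cell line, so no mark value has a replicate check.

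ETS factors share a DNA-binding domain that recognises sequences around a GGAA core. ELF3 and EHF belong to an epithelium-restricted branch of the family, and ELF3 is induced in injured and inflamed epithelia. SPDEF is an epithelial factor best known in the airway for driving mucous (goblet) cell differentiation. ETS1 is a broadly acting member with known roles in lymphoid, endothelial and invasive tumour cells, and ETS2 is a widely expressed relative of ETS1 that responds to growth factor signalling. H3K27ac marks active promoters and enhancers, and H3K4me1 marks enhancers, active or not. In the RefSeq gene order (GRCh38.p14), the neighbouring protein-coding genes are RNPEP and GPR37L1 for ELF3 and PACSIN1 and ILRUN for SPDEF. They are KIRREL3 and FLI1 for ETS1, and ERG and PSMG1 for ETS2, so that FLI1 and ERG, which are ETS genes too, lie next to members. Which mark region belongs to which of these genes was not analysed here.

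Over these windows, coverage by either mark did not divide the loci into epithelial and broad genes. ELF3 and ETS2, 1 gene of each kind, had the most H3K27ac, ETS1 had less and SPDEF had almost none. H3K27ac regions covered 31.4% of the ELF3 window, 24.6% of the ETS2 window, 9.71% of the ETS1 window and 1.25% of the SPDEF window. By contrast, the shares covered by H3K4me1 regions lay closer together, at 7.002% for ELF3, 5.86% for ETS2, 4.83% for SPDEF and 4.82% for ETS1. The sum of H3K27ac scores per kb of window gave the same order as coverage, at 17.2 for ELF3, 9.03 for ETS2, 3.34 for ETS1 and 0.223 for SPDEF. The H3K27ac order was the same in all 5 other settings in which it was computed, this sum of scores included. The H3K4me1 order was the same in none of 5. With 100 kb on each side both epithelial genes ranked above both broad ones. The H3K4me1 shares there were 5.88% for ELF3, 3.74% for SPDEF, 3.42% for ETS2 and 3.36% for ETS1. The same division appeared by the sum of scores and with regions at or above the list's median score per kb. It did not appear with 25 kb on each side or with gaps of up to 1000 bp filled.

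**Figure D1:**
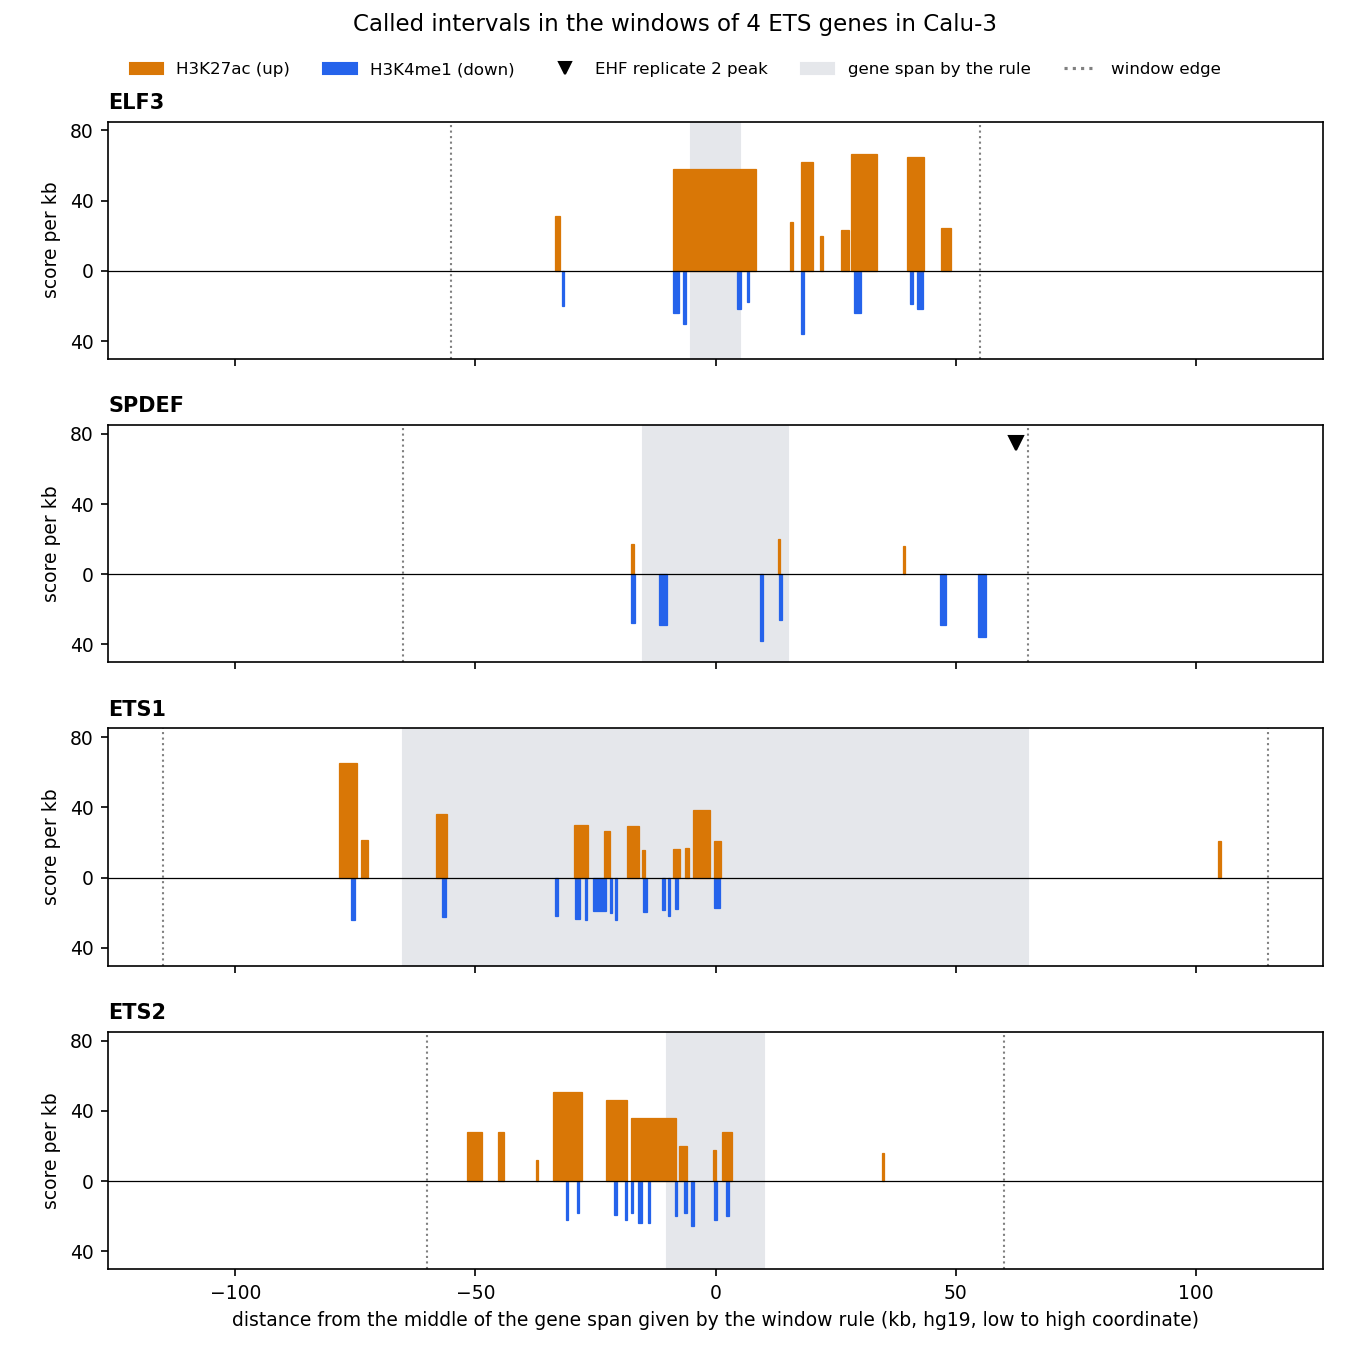
Called intervals in each window by distance (kb) from the middle of the gene span that the window rule gives. Bar height is the deposited score per kb of region, H3K27ac upwards and H3K4me1 downwards; ELF3 lies under a single wide H3K27ac region, SPDEF has 3 short ones, and the only EHF peak (triangle, height without meaning) is 2.39 kb from the SPDEF window edge.

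The ELF3 gene span sat inside a wide H3K27ac region. Its promoter in RefSeq (GRCh38.p14, plus strand, chr1:202010337-202010636, a position that cannot be set beside hg19 ones) is shown because this is the locus with the most H3K27ac of the 4. Capitals mark GGAA and its reverse complement TTCC.
ELF3 promoter: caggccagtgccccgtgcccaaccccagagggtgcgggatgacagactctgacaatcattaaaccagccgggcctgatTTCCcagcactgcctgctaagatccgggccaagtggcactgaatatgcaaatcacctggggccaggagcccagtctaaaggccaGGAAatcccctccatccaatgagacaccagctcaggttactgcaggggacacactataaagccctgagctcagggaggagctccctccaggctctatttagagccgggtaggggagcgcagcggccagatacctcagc
The region, at 201976059 to 201993342 on chromosome 1, was 17284 bp wide and scored 1004 (962 to 1047). It was the 59th widest of 34638 and the 160th by score, and it covered the whole gene span, which the window rule places at 201.98 to 201.99 Mb. Its score per kb of 58.1 was exceeded by 9.05% of all H3K27ac regions. It held 4 H3K4me1 regions, 2 near each end, and between them a stretch of 10619 bp without H3K4me1 that took in most of the gene span. One of the 4, at 201989393 to 201990405, reached into the high end of the span, and H3K4me1 covered 6.08% of the span and 7.09% of the flanks. In the ETS2 window a 9382 bp H3K27ac region likewise held 4 H3K4me1 regions and a gap, of 5163 bp.

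Most other ELF3 signal lay on the high-coordinate side. There H3K27ac covered 38.7% of the 50 kb flank, against 10.3% of the flank on the low side. The region at 202013293 to 202018597 was 5305 bp wide and scored 352 (327 to 378). The region at 202024858 to 202028347 was 3490 bp wide and scored 227 (207 to 248), and that at 202002763 to 202005336 was 2574 bp wide and scored 160 (144 to 178). These 3 had the highest scores per kb of the window, 66.4, 65.0 and 62.2, against a median of 27.9 over the whole list, and each contained H3K4me1. The other 5 H3K27ac regions scored between 10 and 51. Over the whole list, 45.2% of H3K4me1 regions overlapped H3K27ac. Of the 9 H3K4me1 regions of the window, 8 overlapped H3K27ac and the remaining one lay 234 bp from it. The widest were at 202013888 to 202015367 (1480 bp, score 36), at 201976072 to 201977310 (1239 bp, score 30) and at 202026978 to 202028179 (1202 bp, score 26), and that at 202002848 to 202003348 had the highest score per kb, 35.9. In all, 93.5% of the H3K4me1 bases around ELF3 were also in H3K27ac.

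SPDEF showed the opposite arrangement, with H3K4me1 and little H3K27ac. The RefSeq promoter (GRCh38.p14, minus strand, chr6:34556280-34556579) is shown as that of the locus with the least H3K27ac, marked as above.
SPDEF promoter: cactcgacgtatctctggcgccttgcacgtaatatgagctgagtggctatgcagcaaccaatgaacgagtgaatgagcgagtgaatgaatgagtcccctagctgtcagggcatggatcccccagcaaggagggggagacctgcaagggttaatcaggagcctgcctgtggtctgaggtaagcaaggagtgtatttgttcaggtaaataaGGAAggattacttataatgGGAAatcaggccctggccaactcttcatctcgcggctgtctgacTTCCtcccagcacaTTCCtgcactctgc
The window had 3 H3K27ac regions. They were at 34497362 to 34497990 (629 bp, score 11, 7.18 to 16.7), 34528006 to 34528506 (501 bp, score 10, 6.07 to 15.0) and 34554045 to 34554545 (501 bp, score 8, 4.62 to 12.7). All 3 were at or near the narrowest width on the list, 501 bp, and their scores per kb of 16.0 to 20.0 lay below the list median of 27.9. Scores per kb were not low in this part of chromosome 6 as a whole, since the 256 H3K27ac regions within 5 Mb of the gene had a median of 43.0. Over the span that the rule gives, 34.50 to 34.53 Mb, which is not the exact gene, H3K27ac covered 1.67% of the bases, against every base of the span for ELF3, 30.8% for ETS2 and 12.7% for ETS1.

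The H3K4me1 regions of SPDEF were fewer than those of the other loci but had more tags per kb. The 6 regions had a median score per kb of 28.7, against 21.7 at ELF3, 21.6 at ETS1, 20.96 at ETS2 and 23.2 over the whole list. The 269 H3K4me1 regions within 5 Mb had a median of 27.2, so the values at SPDEF were near those of its surroundings. The widest were at 34503255 to 34504854 (1600 bp, score 46, 35.2 to 59.5), near the low end of the gene span, at 34569741 to 34571287 (1547 bp, score 55, 42.7 to 68.9) and at 34561785 to 34562969 (1185 bp, score 34, 24.6 to 45.5). The last 2 lie outside the gene span, towards the gene's 5′ side. A region at 34524368 to 34524868 had the highest score per kb, 37.9, which 2.86% of all H3K4me1 regions exceeded. The minus-strand gene starts on this high-coordinate side of its span. Of the 6 H3K4me1 regions, 2 overlapped H3K27ac, and over the whole list 45.2% of H3K4me1 regions did. The other 4 were 3137 to 15195 bp from the nearest H3K27ac region. By bases, 13.7% of H3K4me1 at SPDEF was in H3K27ac, compared with 93.5% at ELF3, 83.5% at ETS2 and 49.3% at ETS1.

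**Figure D2:**
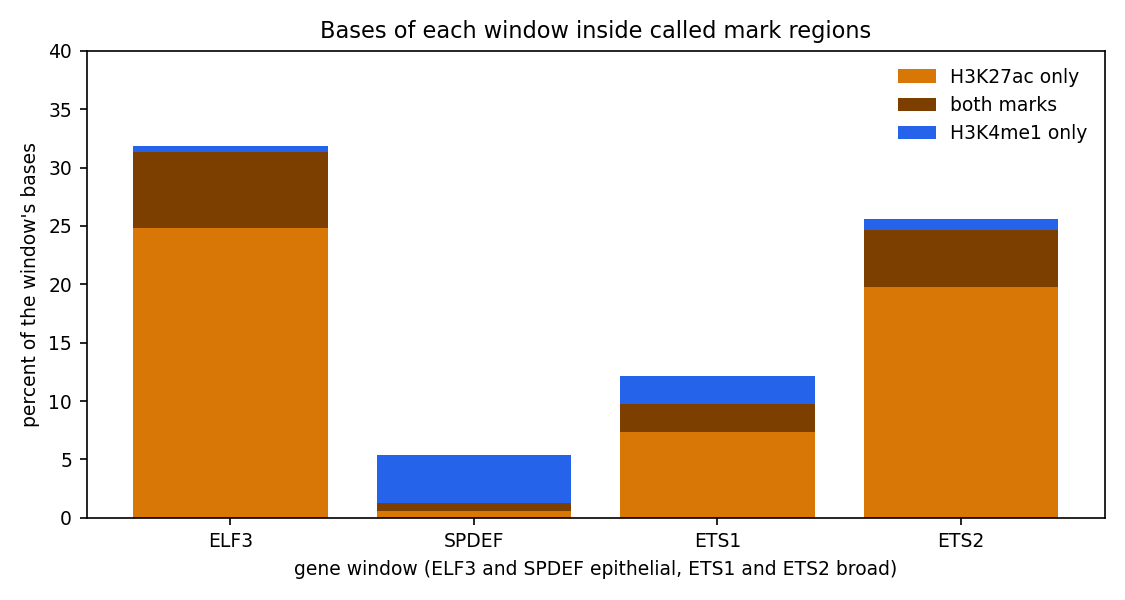
Percent of each window's bases (y axis) in H3K27ac regions alone, in both marks and in H3K4me1 regions alone, for the 4 gene windows. H3K4me1 without H3K27ac made up 4.17% of the SPDEF window and 0.455% of the ELF3 window, and H3K27ac alone 0.595% and 24.8%.

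ETS1, the longest gene of the set, carried many small regions of both marks in 1 part of its span. Of 12 H3K27ac regions, 9 lay in the gene span, placed at 128.33 to 128.46 Mb, and so did 12 of 13 H3K4me1 regions. From the region ending at 128396249 there followed a stretch of 103.3 kb without H3K27ac, up to 128499562, and it also held no H3K4me1. The marked part of the span ended near its middle. The widest region within it, at 128390261 to 128393848, was 3588 bp and scored 139 (124 to 156). Among the others in the gene span, those at 128365565 to 128368442 (2878 bp, score 86, 73.9 to 99.2) and 128336813 to 128339052 (2240 bp, score 81, 69.6 to 94.2) scored highest. The region with the highest score of the window was outside the gene span, at 128316654 to 128320323. It was 3670 bp wide, scored 240 (220 to 262) and had a score per kb of 65.4, close to the best regions at ELF3. Most of the rest were weak, and the median score per kb over the 12 was 24.0.

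The H3K4me1 regions of ETS1 clustered between 128361595 and 128387142, where 10 of the 13 lay. The widest, at 128369400 to 128372283, was 2884 bp with a score of 55 (42.7 to 68.9), and 0.732% of all H3K4me1 regions were wider. The next widest were at 128394720 to 128395937 (1218 bp, score 21) and 128365678 to 128366740 (1063 bp, score 25), and the highest score per kb, 24.3, was at 128319152 to 128319933. Of the 13, 9 overlapped H3K27ac, beside 45.2% of all H3K4me1 regions. Both marks were thus present along the same part of the gene, and 49.3% of the H3K4me1 bases were in H3K27ac. In turn, 24.5% of the H3K27ac bases carried H3K4me1, against 20.9% at ELF3, 19.9% at ETS2 and 52.5% at SPDEF.

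ETS2 had broad H3K27ac over the low-coordinate part of its window, which for this plus-strand gene is the 5′ side. RefSeq gives it 2 promoters (GRCh38.p14, chr21:38804933-38805232 and chr21:38805679-38805978, plus strand), shown as those of the broad ETS gene with the most H3K27ac, marked as above.
ETS2 promoter A: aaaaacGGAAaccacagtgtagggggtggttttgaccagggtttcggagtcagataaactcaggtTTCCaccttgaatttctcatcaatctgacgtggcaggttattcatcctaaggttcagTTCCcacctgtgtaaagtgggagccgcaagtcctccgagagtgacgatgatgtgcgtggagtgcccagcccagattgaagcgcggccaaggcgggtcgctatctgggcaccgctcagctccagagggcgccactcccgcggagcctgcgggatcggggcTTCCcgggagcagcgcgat
ETS2 promoter B: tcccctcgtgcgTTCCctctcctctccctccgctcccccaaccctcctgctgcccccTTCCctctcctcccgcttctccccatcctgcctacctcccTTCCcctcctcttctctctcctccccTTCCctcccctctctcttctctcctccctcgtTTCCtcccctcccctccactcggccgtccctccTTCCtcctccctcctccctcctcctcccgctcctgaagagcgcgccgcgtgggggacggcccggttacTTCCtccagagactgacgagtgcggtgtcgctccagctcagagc
The widest region, at 40172328 to 40181709, was 9382 bp and scored 337 (313 to 362). It ran into the gene span, placed at 40.18 to 40.20 Mb, from the 5′ side. Next came the regions at 40156218 to 40162208 (5991 bp, score 303, 280 to 327) and 40167230 to 40171633 (4404 bp, score 204, 185 to 224), with scores per kb of 50.6 and 46.3. H3K27ac covered 45.8% of the 50 kb on the 5′ side and 1.00% of the 50 kb on the 3′ side. As the span is known only to about 10 kb, the 5′ flank may include the start of the gene. The asymmetry ran the other way at ELF3, also a plus-strand gene, where the richer flank was the 3′ side.

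All 12 H3K4me1 regions of ETS2 overlapped H3K27ac or, in 1 case, lay 836 bp from it, beside 45.2% overlapping in the whole list. They were short, between 501 and 837 bp, and scored 9 to 20. The 3 widest were at 40173833 to 40174669 (score 20), 40184816 to 40185605 (score 20) and 40168773 to 40169505 (score 14), and the second of these had the highest score per kb, 25.3. Scores on chromosome 21 were low in general. The median score per kb of H3K27ac was 22.0 over that chromosome, against 28.9 on chromosome 1, 28.2 on chromosome 6 and 27.004 on chromosome 11, so levels are not strictly comparable between loci on different chromosomes.

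Of the 3 sequence motifs searched on both strands of the 4 promoters, the ETS core GGAA was found in each. It occurred 2 times at ELF3, 4 times at SPDEF, 4 times in ETS2 promoter A and 7 times in ETS2 promoter B, and 95.5% of the 35116 promoters of that length in the RefSeq table hold it. AGGAAG, which contains the core, occurred 2 times at SPDEF and 2 times in ETS2 promoter B, and 33.6% of all promoters hold it. CCGGAAG, a longer ETS-type sequence that also contains the core, was in none of the 4 and is in 10.3% of all promoters. The 4 promoters belong to 3 of the 4 members. These are matches of letters in a 300 base window and not binding sites.

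EHF itself was hardly called at these loci. A single peak of replicate 2 was found, at 34577489 to 34577613 on chromosome 6, in the SPDEF window. It had a score of 10 (4.10 to 18.7), below the list median of 12.0. It was 47.5 kb from the SPDEF gene span, on the 5′ side, 6201 bp from the nearest H3K4me1 region and 22943 bp from the nearest H3K27ac region. It was not in replicate 1, whose nearest peak to the SPDEF span was 1170 kb away. Over the genome 14.7% of replicate 2 peaks recurred in replicate 1, 63.8% overlapped H3K27ac, 7.98% overlapped H3K4me1 and 33.8% lay outside both marks, as this peak did. No site common to both replicates lay in any window. At the length of the windows, the genome-wide average would be 0.996 peaks of replicate 2 and 0.293 of replicate 1 in the 590.0 kb together, so that 1 and 0 are near the average.

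None of the 34 H3K27ac regions and none of the 40 H3K4me1 regions held an EHF peak of either replicate, where 9.82% of all H3K27ac and 1.57% of all H3K4me1 regions do. The ELF3 region is among 302 H3K27ac regions of at least 10 kb, a width chosen after the region was seen. Of these 302, 143 (47.4%) held an EHF peak, which the ELF3 region did not, and 250 (82.8%) held H3K4me1, which it did. Around ELF3 the nearest EHF peak was at 201924523 to 201924647, with a score of 12 in replicate 2. It lay 5.35 kb outside the window, 55.4 kb from the gene span, and inside another H3K27ac region. For ETS1 and ETS2 the nearest replicate 2 peaks were 600 kb and 550 kb from the gene span. The nearest replicate 1 peaks were 459 kb away for ELF3, 1250 kb for ETS1 and 3694 kb for ETS2. A peak that is not listed only failed the calling rules, and the lowest score listed in either EHF list was 6.

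Most stretches of these lengths held no EHF peak, and the share that held one was higher among stretches with as much H3K27ac. The genome was cut into adjoining tiles as long as each window. EHF replicate 2 peaks were centred in 13.8% of the tiles of the ELF3 length, 15.8% of the SPDEF length, 23.8% of the ETS1 length and 14.8% of the ETS2 length. For replicate 1 the shares were 4.90%, 5.68%, 9.48% and 5.30%. Among the 63 tiles with at least the H3K27ac coverage of the ELF3 window, 45 (71.4%, exact 95% interval 58.7% to 82.1%) had a replicate 2 peak. The same held for 96 of 133 tiles (72.2%, 63.7% to 79.6%) at the ETS2 level and for 426 of 571 (74.6%, 70.8% to 78.1%) at the ETS1 level. ELF3, ETS1 and ETS2 thus fall in the smaller group of H3K27ac-rich stretches without a replicate 2 peak, which held 28.6%, 25.4% and 27.8% of such tiles. For replicate 1 they fall in the larger group, since 63.5%, 64.1% and 65.4% of the same tiles had no replicate 1 peak. These shares come from different tile lengths, and neighbouring tiles are not independent. The 8741 tiles with at least the H3K27ac coverage of the SPDEF window include the most H3K27ac-rich ones. Of these, 34.1% had a replicate 2 peak, as the SPDEF window does.

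**Figure D3:**
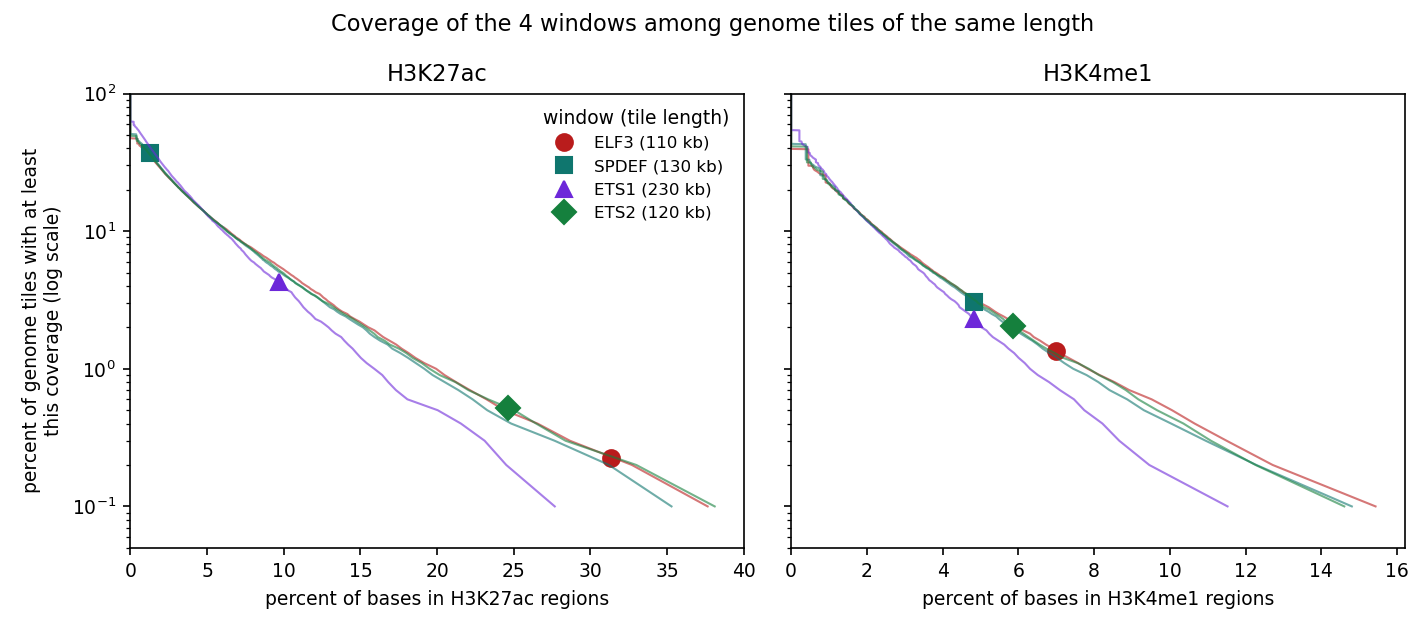
Share of genome tiles of the window's length (y axis, log scale) with at least the coverage on the x axis, for H3K27ac and H3K4me1. Lines are the tiles, 1 per window length, and symbols are the 4 windows; SPDEF stands apart for H3K27ac, where 36.8% of tiles reach its coverage, and near the others for H3K4me1.

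Set among these tiles, all 4 windows were rich in H3K4me1 and 3 of them in H3K27ac. The H3K27ac coverage of ELF3 was reached by 0.224% of 28082 tiles, that of ETS2 by 0.517% of 25739, that of ETS1 by 4.25% of 13425 and that of SPDEF by 36.8% of 23758. For H3K4me1 the shares were 1.35% for ELF3, 2.04% for ETS2, 2.30% for ETS1 and 3.07% for SPDEF. Tiles include stretches without genes, and the windows were placed on genes, so these ranks describe the windows and are not tests. The surroundings differed as well. Within 5 Mb of each gene H3K27ac covered 4.79% of the bases around SPDEF, 4.13% around ETS2, 3.54% around ELF3 and 2.14% around ETS1. SPDEF was thus the only one of the 4 whose window held a lower share than its own surroundings. In the same 10 Mb stretches there were 50 EHF peaks of replicate 2 around SPDEF, 29 around ELF3, 12 around ETS2 and 4 around ETS1.

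Averaged by pair, the epithelial genes were close to the broad ones, because each pair held a gene with much H3K27ac and a gene with less. H3K27ac covered a mean of 16.3% in the ELF3 and SPDEF windows and 17.2% in the ETS1 and ETS2 windows, a difference of -0.87 percentage points. This difference turned to 14.2 points without SPDEF and became -15.9 points without ELF3. For H3K4me1 the means were 5.91% and 5.34%, a difference of 0.57 points. EHF replicate 2 had 0.385 peaks per 100 kb in the epithelial windows and 0 in the broad ones, which rests on the single peak at SPDEF. Between 2 genes and 2 others the smallest two-sided exact permutation p is 0.333, and genes are not replicates of a condition, so no test was made.

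The overlap between the marks was counted over all 4 windows together. Of the 40 H3K4me1 regions, 30 (exact 95% interval of the share 58.8% to 87.3%) overlapped H3K27ac, beside 45.2% of all H3K4me1 regions. Of the 34 H3K27ac regions, 19 (55.9%, 37.9% to 72.8%) overlapped H3K4me1, beside 34.5% of the whole list. Regions of 1 window are neighbours and share a library, so the intervals are too narrow as a guide to other loci. The median width of the members was 1488 bp for H3K27ac and 641 bp for H3K4me1, against 1370 bp and 501 bp over the lists. Of the 34 H3K27ac regions 14 exceeded the list's median score per kb, as did 17 of the 40 H3K4me1 regions. The number of H3K27ac regions per 100 kb was 8.33 at ETS2, 8.18 at ELF3, 5.22 at ETS1 and 2.31 at SPDEF.

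**Figure D4:**
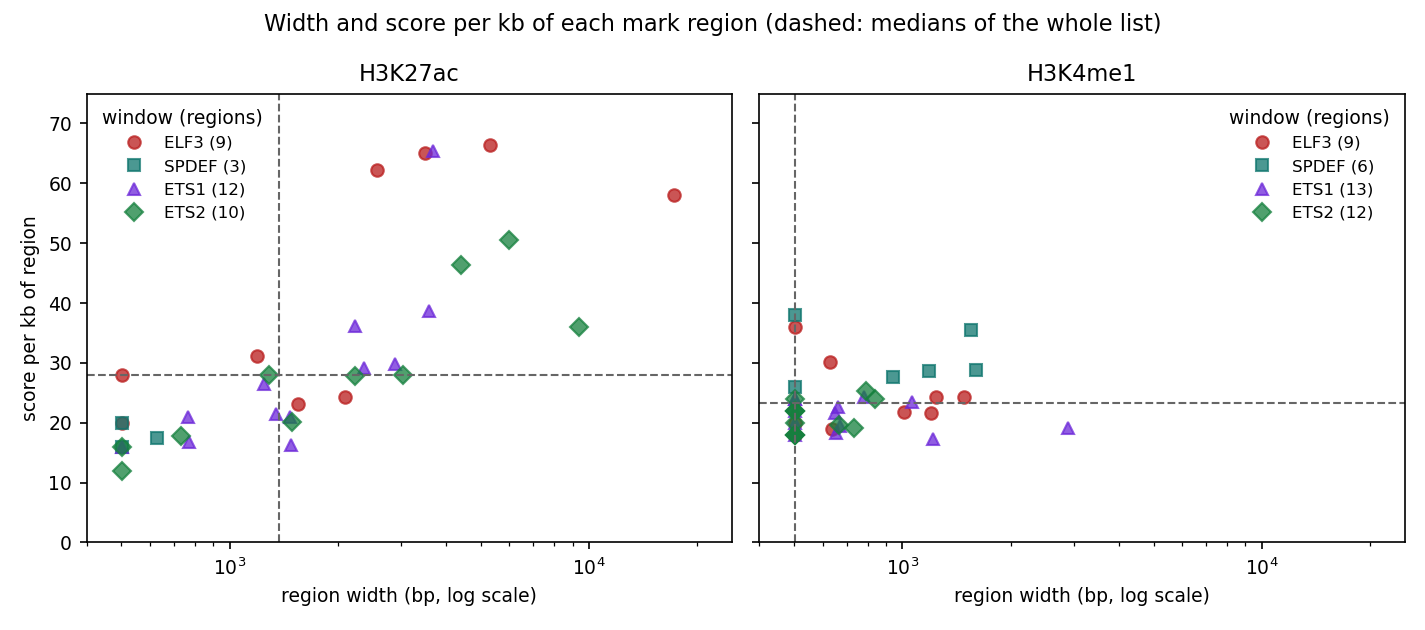
Width (x axis, bp, log scale) and deposited score per kb (y axis) of each of the 34 H3K27ac and 40 H3K4me1 regions, with symbols for the 4 windows and dashed lines at the medians of the whole lists. The wide H3K27ac regions with a high score per kb are those of ELF3, ETS2 and 1 of ETS1, and the SPDEF regions sit at the narrow, low end for H3K27ac and above the median score per kb for H3K4me1.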

How the data were processed

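Reads were aligned and intervals called by the submitters, and neither reads nor inputs were used here. The submitters' processing notes name HOMER 1.2, Bowtie 1.0.0 and the build hg19. Intervals were called per library, not on pooled replicates, against the matching input with findPeaks of HOMER, per the file headers. EHF was called in factor style and the marks in histone style, with a false discovery rate of 0.01, 4-fold enrichment over input and a 4-fold rule over the local 10 kb. Mark regions were stitched from windows of 500 bp, which sets their minimum width. Of the members, 18 of 40 H3K4me1 regions and 7 of 34 H3K27ac regions had that minimum, which limits how small their coverage can be. The deposited score is a tag count that the authors scaled to 10000000 tags per library and rounded, per the file headers. It is not an enrichment over input.

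Intervals were assigned in Python 3.11.15 (scipy 1.17.1, pandas 2.3.3, numpy 2.4.6), with any shared base (1 bp) counted as overlap. The coverage and overlap functions were tested on simulated data. The 4 member genes, every EHF peak, and of each window's mark regions the 3 widest and the one with the highest score per kb are named, with others where a comparison turns on them. The members and lists were chosen with earlier results of these data known. The gene table at hand is of GRCh38.p14, so other ETS genes and the 9 cell type markers were not placed on hg19 and the cell type was not checked. Protein sequences were not used here.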

Additional observations from a re-analysis of the deposited data

How the results depend on the processing

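The H3K27ac order of the genes (ELF3, ETS2, ETS1, SPDEF) was the same in all 5 other settings, the sum of scores included. The tile ranks moved by less than 1.5 times when the tiles were shifted along the genome, in 8 of 8 cases. Of 32 values for single genes, 22 stayed within 1.5 times and 10 moved further. These are covered shares, which cannot change sign. The differences between pairs were not stable, and the cause was not tested beyond what each setting itself removes. The H3K27ac difference of -0.87 points was 14.2 without SPDEF, 6.60 without ETS2, 3.32 with 100 kb on each side, 1.81 with regions at or above the list's median score per kb, and 0.22 with windows pooled by length. It was -15.9 without ELF3, -8.33 without ETS1, -2.42 with 25 kb on each side and -1.94 with gaps of up to 1000 bp between regions filled. As a sum of scores per kb of window, an alternative chosen after seeing the data, it was 2.52. The H3K4me1 difference of 0.57 points was -1.72 with 25 kb on each side, -0.51 without ELF3 and -0.35 with merged regions. It was 1.42 with 100 kb on each side, 1.66 without SPDEF, 0.055 without ETS1, 1.09 without ETS2 and 2.66 with regions at or above the median. The EHF difference of 0.385 peaks per 100 kb was 0.769 without ELF3. It was 0.455 with 100 kb on each side, 0.417 with windows pooled by length, and 0.385 without ETS1 or without ETS2. It was 0 without SPDEF, with 25 kb on each side, with replicate 1 peaks in place of replicate 2 (without replicate 2), or with scores at or above the list median. No shared EHF site was found with 100 kb on each side. The rest of the 4 other settings start from replicate 1 peaks inside the windows. With 0 such peaks, they could not find a shared site. The single EHF peak of the windows was 22943 bp from H3K27ac, so the 4 settings run for that share could not place it inside. With 100 kb on each side, which was not among those 4, the replicate 2 peak near ELF3 enters and lies in H3K27ac. Without replicate 2 there was no peak to judge. The EHF lists rest on few tags, with 0.155% and 0.740% of them in peaks. No paired analysis was possible because only EHF has numbered replicates and the results come from no test.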
